A study of Mus musculus with 4 samples.

Results

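Leukemia inhibitory factor (LIF) and the proteins that carry its signal form 1 pathway, and 10 of its genes were followed here across poly(A)+ RNA-seq libraries of E14 mouse embryonic stem cells (ESCs). They were picked by gene symbol as a list of the pathway, with no threshold on measured values, from the 50559 genes of the deposited count table. They are the ligand gene *Lif*, the receptor genes *Lifr*, *Il6st* and *Osmr*, the kinase gene *Jak1*, the transcription factor gene *Stat3*, the inhibitor genes *Socs3* and *Socs2*, and the target kinase genes *Pim1* and *Pim3*. All 10 were found in the table. Of these, 9 averaged at least 10 reads over the libraries, as did 18586 genes of the table, which are called the tested genes below, and *Osmr* did not.

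LIF binds a receptor made of LIFR and gp130, the product of *Il6st*. The receptor has no kinase activity of its own and uses Janus kinases such as JAK1 to phosphorylate STAT3, which enters the nucleus and switches on its target genes. *Socs3*, *Pim1* and *Pim3* are among those targets, and SOCS3 binds gp130 and shuts the signal down. Mouse ESCs in culture are commonly kept undifferentiated by adding LIF to the medium, so the pathway is active in them.

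The study knocked down *Ythdf2* in these cells and put YTHDF2 back. YTHDF2 recognises N6-methyladenosine (m6A) in RNA from the cytoplasm and is known for promoting the decay of the RNA it binds. There were 4 libraries, 1 per group. The control, shScram+EV, carried an empty vector and a hairpin of scrambled sequence. The other cells carried a hairpin against *Ythdf2*, either with the empty vector (shYthdf2+EV, the knockdown), with wild-type YTHDF2 (shYthdf2+DF2WT, the wild-type add-back) or with YTHDF2 mutated so that it cannot bind m6A (shYthdf2+DF2Mut, the mutant add-back). Every culture was fed 1000 U/ml of recombinant mouse LIF and 15% serum replacement on gelatin, and the labels mention no feeder cells, so the ligand was supplied from outside in all 4 groups and its dose was not varied. Per the study's methods the hairpins were in stable lentiviral lines selected with puromycin, and the cells carried a tdTomato reporter driven by a MERVL promoter. The study describes the wild-type and mutant YTHDF2 genes as transfected into knockdown cells. Of the 2 *Ythdf2* hairpins that the methods list, the one sequenced is not named in the labels. The methods also mention biological replicates for the RNA-seq, but the labels give a single library per group. No difference below has a replicate check, no test was possible, and every interval covers counting error only, so differences are between libraries and cannot be told apart from differences between any 2 cultures.

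Libraries held between 31533129 and 35742335 counted reads. Levels are given as CPM, the reads of a gene in a library brought to 1000000 reads after scaling of the library sizes, and a log2 ratio compares the levels of 2 libraries, with the 95% counting interval in parentheses. *Ythdf2* had 89.0 CPM in the control, 18.5 in the knockdown, 234 in the wild-type add-back and 216 in the mutant add-back. It was thus low in the knockdown and well above the control in both add-back libraries, where reads of the vector and of the cells' own gene are summed. The defining ESC genes *Nanog*, *Pou5f1*, *Sox2*, *Esrrb*, *Zfp42* and *Dppa5a* together had between 3955 and 4512 CPM. Of 7 fibroblast markers, *Dcn* and *Lum* had 0 reads in every library and the summed level was 10.8 to 16.5 CPM.

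Patterns that STAT proteins and the m6A machinery are known to recognise were searched in the members, and those of *Socs3* and *Pim1* are given because these genes differed most between libraries. STAT proteins bind the pattern TTCNNNGAA, a palindrome whose search on 1 strand covers both. Of 32851 RefSeq promoter windows of the mouse (GRCm38.p6, from 250 bases before to 50 bases after the start site), 8.3% held it. Windows were given for 9 of the 10 members, *Socs2* being the exception, and only that of *Socs3* held the pattern, starting 154 bases before the start site, in the stretch chr11:117969502-117969530 on the minus strand, with the pattern in capitals.
*Socs3* promoter: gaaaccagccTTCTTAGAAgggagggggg
The stricter form TTCCNGGAA stood in 1.15% of all windows and in none of the members'. These windows are short, and the match is a description of letters, not of binding.

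The m6A mark is placed on adenosines of a short motif of which GGACT is the commonest strong form. GGACT was searched on the transcript strand of the longest coding transcript of each gene (GENCODE vM21, mm10), where the A would carry the mark. All 10 members held it, as did 92.6% of 14324 protein-coding genes with enough reads. *Socs3* held 3 copies and *Pim1* 5. The copy of *Socs3* in its coding sequence lies in exon 2, close to the stop codon, at chr11:117967616-117967636 on the minus strand, and another lies in the 3′ UTR at chr11:117967255-117967275. The copies of *Pim1* shown stand in the coding part of exon 4 at chr17:29491710-29491730 and chr17:29491737-29491757 on the plus strand. Capitals mark GGACT.
*Socs3* coding site: ggccacctGGACTcctatgag
*Socs3* UTR site: tgacaagcGGACTctcccctc
*Pim1* first coding site: gtgagctcGGACTtctcgggc
*Pim1* second coding site: agacttctGGACTggttcgag
Per kilobase, the members ranged from 0.497 copies in *Stat3* to 1.85 in *Pim1*, beside a median of 1.06 (interquartile range 0.646 to 1.52) over protein-coding genes. Most members therefore lay within the common range, with *Stat3* below it and *Pim1* and *Lif* (1.74) above it. Methylation was not measured in these libraries, so whether any copy carries m6A is not known from them.

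The levels per length show how the pathway was stocked in these cells. In RPKM, the CPM per kilobase of summed exon length, the median over the 4 libraries was 52.6 for *Socs3*, 48.8 for *Pim3* and 42.5 for *Pim1*, and the ranges of these target genes overlapped. *Stat3* followed at 30.9 RPKM, *Il6st* at 17.8, *Jak1* at 13.8 and *Lifr* at 10.7, and the ranges of these neighbours in the order did not overlap. *Socs2* had 4.72 RPKM, *Lif* 1.76 and *Osmr* 0.0318. Thus the feedback and target genes were the most abundant, the signalling chain lay below them, and the ligand, which the medium supplied, was scarce. The place of *Socs2* depends on the length used. Its exons in the annotation sum to 13085 bases while its longest coding transcript has 2222, with which its median became 27.8 RPKM, above *Stat3* at 23.5. With transcript lengths, *Jak1* at 17.0 and *Lifr* at 11.9 also stood above *Il6st* at 11.7.

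**Figure D1:**
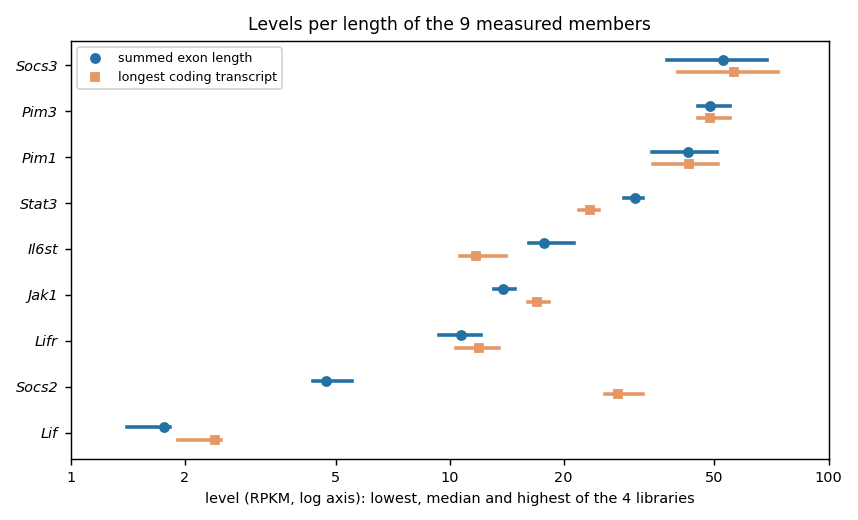
Levels per length of the 9 measured members, in RPKM on a log axis. The dot is the median and the line runs from the lowest to the highest of the 4 libraries, for the summed exon length of the deposited table (blue) and the length of the longest coding transcript (orange). *Socs3*, *Pim3* and *Pim1* lead with medians of 52.6, 48.8 and 42.5 RPKM, *Lif* is lowest at 1.76, and only *Socs2* moves far between the lengths, from 4.72 to 27.8.

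Knockdown of *Ythdf2* was read from shYthdf2+EV against shScram+EV. The inhibitor and target genes *Socs3*, *Socs2* and *Pim1* and the receptor gene *Il6st* were each lower in the knockdown library, at 0.76 to 0.793 of the control level, while *Lifr* and *Lif* were higher. None of the 9 measured members was 2-fold apart in this comparison, as 12.8% of the 18586 tested genes were. Low counts make up much of that share, since 0.76% of the 6315 well-expressed genes were 2-fold apart. Well-expressed here means an average of 1000 reads or more over the libraries, which 8 of the members reach. The median log2 ratio of the members was -0.17, beside 0.00 over all tested genes. The counting interval lay below 0 for 5 members and above 0 for 2. Differences of this size were common among well-expressed genes, whose log2 ratios ran from -0.45 to 0.49 between the 5th and the 95th percentile, and all members lay inside that range.

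The ligand gene *Lif* (mm39 chr11:4207568-4222514) had 243 reads in the control, 351 in the knockdown, 311 in the wild-type add-back and 322 in the mutant add-back, or 7.70, 9.80, 9.49 and 10.02 CPM. The control was the lowest and the 3 libraries with the *Ythdf2* hairpin lay close together. At these counts the knockdown ratio of 0.35 (0.01 to 0.69) barely cleared counting error.

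*Lifr* (mm39 chr15:7120091-7226970), which encodes the LIF-specific receptor chain, had 101 CPM in the control, 130 in the knockdown, 101 in the wild-type add-back and 130 in the mutant add-back. Its levels fell into a high and a low pair, with the control and the wild-type add-back low and the knockdown and the mutant add-back high. The knockdown log2 ratio was 0.37 (0.28 to 0.46). *Il6st* (mm39 chr13:112600604-112643394), for the gp130 chain shared by receptors of the IL-6 family, took another course, with 122 CPM in the control, 92.7 in the knockdown, 102 in the wild-type add-back and 101 in the mutant add-back. Here the control stood above all 3 hairpin libraries, and the knockdown log2 ratio was -0.40 (-0.49 to -0.30). The receptor chains of LIF thus differed from the control in opposite directions in the knockdown library.

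*Osmr*, for the oncostatin M receptor chain that also pairs with gp130, was at the edge of detection. It had 0 reads in the control, 13 in the knockdown, 4 in the wild-type add-back and 8 in the mutant add-back. Counted in read pairs, the 0 of the control has an upper limit of 0.234 CPM and the knockdown, at 0.363 CPM, an interval of 0.140 to 0.767. The intervals of all 4 libraries overlap, so no fold is given.

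*Jak1* (mm39 chr4:101009171-101122493) had 86.3 CPM in the control, 81.0 in the knockdown, 79.0 in the wild-type add-back and 89.7 in the mutant add-back. *Stat3* (mm39 chr11:100777632-100830447) had 149, 133, 142 and 142 CPM in the same order. These core signalling genes varied least, with the highest level 1.14 times the lowest for *Jak1* and 1.13 times for *Stat3*, below the 1.23 of the median well-expressed gene. Their knockdown log2 ratios were -0.09 (-0.20 to 0.02) for *Jak1* and -0.17 (-0.25 to -0.09) for *Stat3*. Counting ignored strand and exons of *Raver2* overlap those of *Jak1* on the other strand, so reads there could not be assigned. The genes that overlap exons of *Stat3*, *Pim1* and *Pim3* had only 4 to 46 reads.

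*Socs3* (mm39 chr11:117856905-117860192), the feedback inhibitor of gp130, had 163 CPM in the control, 125 in the knockdown, 188 in the wild-type add-back and 102 in the mutant add-back. The order ran from the wild-type add-back at the top through the control and the knockdown to the mutant add-back. The highest level was 1.83 times the lowest, the widest spread of the 9 measured members, and 2.15% of the 6315 well-expressed genes spread as widely. Its knockdown log2 ratio was -0.38 (-0.46 to -0.30).

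*Socs2* (mm39 chr10:95219765-95253176), an inhibitor best known for restraining growth hormone signalling, had 72.1 CPM in the control, 57.1 in the knockdown, 60.2 in the wild-type add-back and 63.4 in the mutant add-back. It was highest in the control and close together in the hairpin libraries, as *Il6st* was, with a knockdown log2 ratio of -0.33 (-0.46 to -0.21). On the counts, the add-back libraries did not separate it from the knockdown as they did *Socs3*. After the correction for GC content and length described below, its log2 ratio to the knockdown was 0.21 with the wild type and 0.05 with the mutant.

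*Pim1* (mm39 chr17:29709759-29715085), a serine/threonine kinase gene induced by STAT3, had 130 CPM in the control, 101 in the knockdown, 138 in the wild-type add-back and 92.9 in the mutant add-back. The libraries stood in the same order as for *Socs3*, and the highest level was 1.49 times the lowest, a spread that 11.7% of the well-expressed genes reached. *Pim3* (mm39 chr15:88746397-88749929), its relative, had 117, 119, 133 and 110 CPM in the order of groups given above. The knockdown log2 ratio was -0.36 (-0.45 to -0.26) for *Pim1* and 0.03 (-0.06 to 0.12) for *Pim3*, so only the former was lower in the knockdown library.

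**Figure D2:**
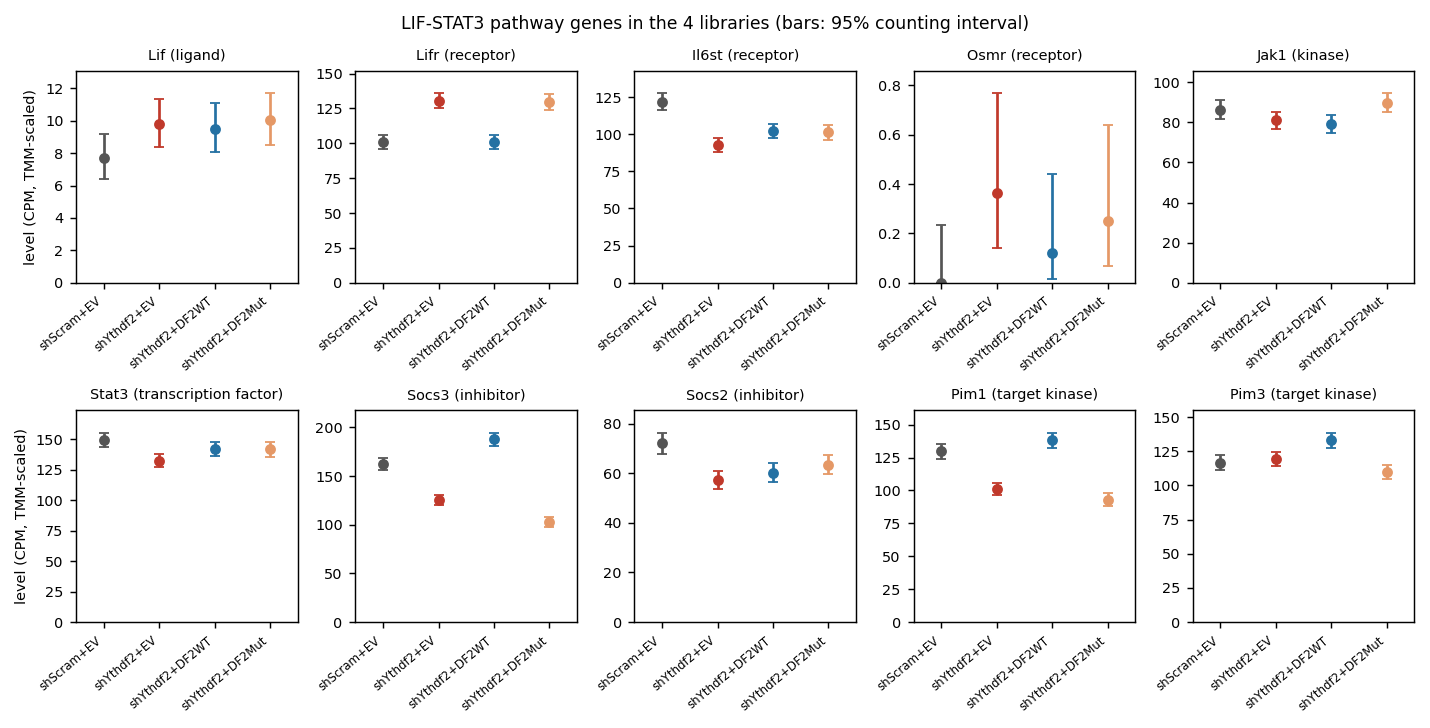
Level of each of the 10 genes in the 4 libraries, in CPM after scaling of the library sizes, with 95% counting intervals as bars and every axis starting at 0. *Socs3* and *Pim1* are highest in shYthdf2+DF2WT (188 and 138 CPM) and lowest in shYthdf2+DF2Mut (102 and 92.9 CPM), *Lifr* forms a high and a low pair, and *Jak1* and *Stat3* are nearly level.

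The add-back of wild-type YTHDF2 was read from shYthdf2+DF2WT against shYthdf2+EV. *Socs3* and *Pim1* were higher with wild-type YTHDF2 and *Lifr* was lower. The log2 ratio was 0.59 (0.51 to 0.67) for *Socs3*, 0.45 (0.36 to 0.54) for *Pim1*, and -0.37 (-0.47 to -0.28) for *Lifr*. No member was 2-fold apart, beside 10.7% of all tested genes and 0.475% of well-expressed genes. *Socs3* was the 1 member to pass 1.5-fold, as 3.12% of well-expressed genes did. Among these genes the log2 ratios ran from -0.41 to 0.41 between the 5th and the 95th percentile, and *Socs3* and *Pim1* lay above that range. On the counts, *Pim3* at 0.16, *Il6st* at 0.14 and *Stat3* at 0.10 were slightly higher, and the intervals of *Lif*, *Jak1* and *Socs2* included 0. After the GC and length correction, *Pim3* stood at -0.09, *Stat3* at 0.002, *Il6st* at 0.22 and *Socs2* at 0.21. The median of the members was 0.10, beside 0.00 over all genes.

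Against the control instead, the wild-type add-back held *Lifr* at a log2 ratio of -0.01 (-0.11 to 0.09), *Socs3* at 0.21 (0.13 to 0.29) and *Pim1* at 0.09 (0.00 to 0.18). *Il6st* at -0.26 (-0.35 to -0.16) and *Socs2* at -0.26 (-0.38 to -0.14) were still lower than in the control. No member was 2-fold apart, beside 6.87% of all tested genes and 0.0633% of well-expressed genes, and the median of the members was -0.01. On the counts, then, *Lifr* and *Pim1* lay near the control level with wild-type YTHDF2 present, *Socs3* somewhat above it, and *Il6st* and *Socs2* below it. GC content moved most with the ratios of this comparison, and the corrected values given below differ for *Lifr*, *Pim1* and *Socs3*. These comparisons share libraries with the one before them, and their values are not independent of it.

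The add-back of the m6A-binding mutant was read from shYthdf2+DF2Mut against shYthdf2+EV. *Socs3* was lower still with the mutant, at -0.29 (-0.38 to -0.19), and *Pim1* slightly lower, at -0.12 (-0.22 to -0.02). *Pim3* stood likewise at -0.12 (-0.21 to -0.03). *Jak1* at 0.15 (0.04 to 0.25), *Socs2* at 0.15 (0.02 to 0.28), *Il6st* at 0.13 (0.03 to 0.23) and *Stat3* at 0.10 (0.01 to 0.18) were slightly higher with the mutant. The intervals of *Lifr*, at -0.01 (-0.09 to 0.08), and of *Lif* included 0. On the counts, *Socs3*, *Pim1* and *Pim3* were thus lower and *Jak1*, *Socs2*, *Il6st* and *Stat3* higher, by small amounts. After the GC and length correction, *Socs3* stood at -0.21 and *Lifr* at -0.12. *Pim1* at -0.08, *Pim3* at 0.017, *Jak1* at 0.07, *Stat3* at 0.06, and *Il6st* and *Socs2* at 0.05 were then within counting error. No member was 2-fold apart, beside 6.1% of all tested genes and 0.0475% of well-expressed genes, and the member median was 0.03. Between the 5th and the 95th percentile the well-expressed genes ran from -0.35 to 0.23, and every member lay inside.

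The mutant was also compared directly with wild-type YTHDF2, which can bind m6A. *Ythdf2* RNA differed by a log2 ratio of -0.12 (-0.18 to -0.05) between these libraries, a value that changed with the processing, as given at the end. With single libraries, no difference here can be ascribed to m6A binding. *Socs3* was lower with the mutant at a log2 ratio of -0.87 (-0.96 to -0.79), the largest difference of any measured member in the 5 comparisons. *Pim1* was lower at -0.57 (-0.67 to -0.48) and *Pim3* at -0.28 (-0.37 to -0.19). *Lifr* was higher at 0.37 (0.27 to 0.46) and *Jak1* at 0.18 (0.07 to 0.29). After the GC and length correction, the *Lifr* and *Jak1* differences were both within counting error. The intervals of *Lif*, *Il6st*, *Stat3* and *Socs2* included 0 on the counts, but after this correction *Il6st* and *Socs2* were lower with the mutant, beyond counting error. No member was 2-fold apart, beside 11.6% of all tested genes and 0.586% of well-expressed genes. *Socs3* alone passed 1.5-fold, beside 6.81% of well-expressed genes. The well-expressed genes ran from -0.55 to 0.48 between the 5th and the 95th percentile, and *Socs3* and *Pim1* lay below that range.

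**Figure D3:**
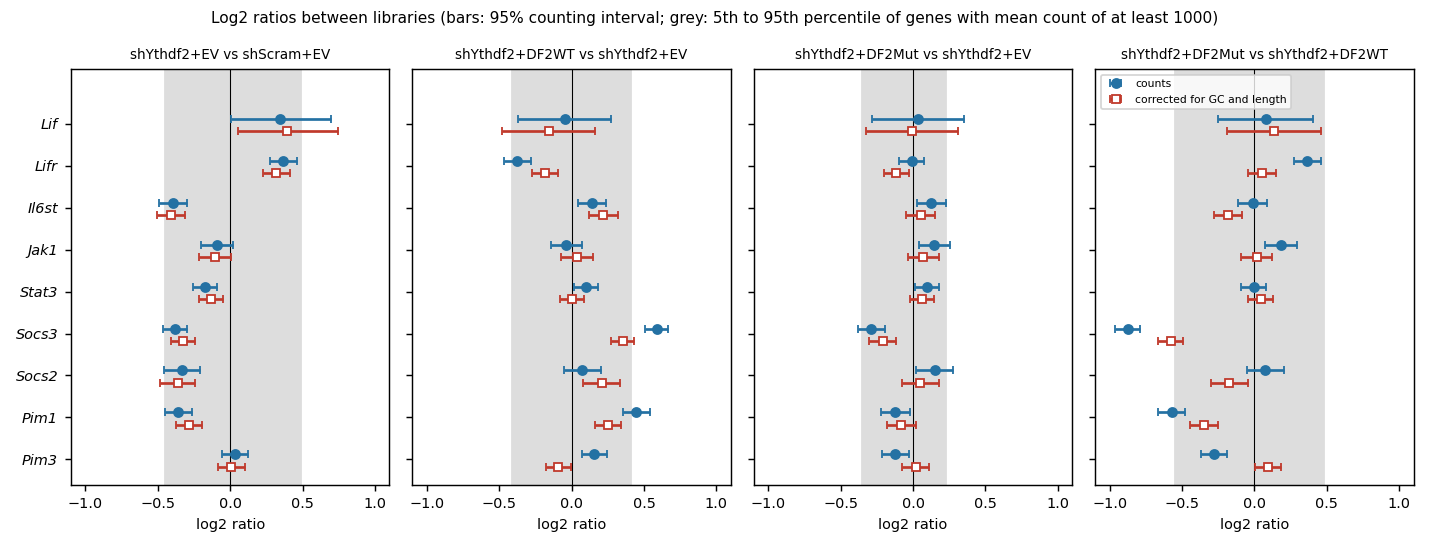
Log2 ratios of the 9 measured members in 4 comparisons, from the counts (blue circles) and after correction for GC content and length (open red squares), with 95% counting intervals. The grey band spans the 5th to the 95th percentile of the well-expressed genes. *Socs3* and *Pim1* leave the band to the right with wild-type YTHDF2 (0.59 and 0.45) and to the left for the mutant against the wild type (-0.87 and -0.57), and after correction *Pim3* stands on the other side of 0 in the 3 comparisons with an add-back.

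The GC content of transcripts moved with these ratios and touches the *Socs3* and *Pim1* values directly. Over 10512 genes that averaged 200 reads or more, Spearman's rho between GC content and log2 ratio was -0.03 for the knockdown, 0.44 for wild type against knockdown, -0.28 for mutant against knockdown, -0.52 for mutant against wild type and 0.55 for wild type against control, given as descriptions across genes that share their libraries. The members span much of the scale, from 44.4% GC in *Lifr* to 56.0% in *Pim1*, 58.7% in *Socs3* and 61.9% in *Pim3*, beside a median of 50.5%. After a correction for GC content and length over all genes, *Socs3* stood at -0.33 (-0.41 to -0.24) in the knockdown, 0.35 (0.27 to 0.43) with the wild type and -0.58 (-0.66 to -0.49) for mutant against wild type. *Pim1* stood at -0.28 (-0.38 to -0.19), 0.25 (0.16 to 0.34) and -0.35 (-0.44 to -0.25). In these 3 comparisons both thus kept their directions at smaller size, *Socs3* fell short of 1.5-fold, and the knockdown values moved least. The well-expressed genes then ran from -0.37 to 0.39 between the 5th and the 95th percentile with the wild type, and *Socs3* and *Pim1* lay inside. For mutant against wild type they ran from -0.45 to 0.36, with *Pim1* inside and *Socs3* still below. Against the control, *Pim1* in the wild-type add-back went from 0.09 to -0.03 (-0.12 to 0.06) and *Socs3* from 0.21 to 0.03 (-0.05 to 0.11), so neither can be said to exceed the control.

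The other members were less steady under this correction. *Pim3* went from -0.28 to 0.09 (0.00 to 0.18) for mutant against wild type and from 0.16 to -0.09 (-0.18 to -0.01) for wild type against knockdown, so no direction can be given for it. *Lifr* for mutant against wild type went from 0.37 to 0.05 (-0.04 to 0.15), although it stayed at 0.32 (0.23 to 0.41) in the knockdown and at -0.18 (-0.28 to -0.09) with the wild type. Against the control, *Lifr* in the wild-type add-back went from -0.01 to 0.14 (0.04 to 0.24), above the control. *Il6st* at -0.41 (-0.51 to -0.31) and *Socs2* at -0.36 (-0.49 to -0.24) kept their knockdown values. Whether the GC trend arose in the cells or in the libraries was not tested.

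**Figure D4:**
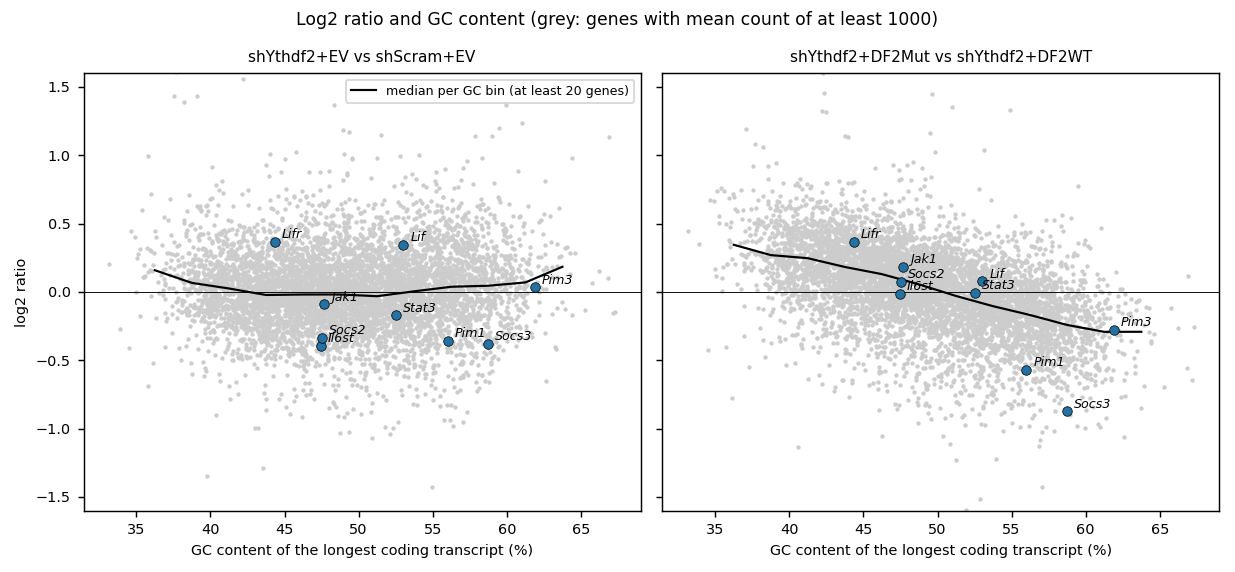
Log2 ratio against the GC content of the longest coding transcript, for the knockdown against the control (left) and the mutant against the wild-type add-back (right). Grey points are the well-expressed genes, the black line is their median per GC bin, and 19 genes on the left and 6 on the right lie outside the axes. The line is nearly flat on the left and slopes down on the right (rho over genes -0.03 and -0.52), where *Socs3* and *Pim1* lie below it and *Pim3* close to it.

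A marker set of another cell state moved with the same libraries. A few ESCs in culture enter a 2-cell-like (2C-like) state, followed here by the 5 markers *Zscan4c*, *Zscan4d*, *Zfp352*, *Tcstv3* and *Usp17la*. Of these, *Zscan4c*, *Zscan4d*, *Tcstv3* and *Usp17la* are of families with near-identical copies. The 5 markers summed to 89.7 CPM in the control, 320 in the knockdown, 105 in the wild-type add-back and 273 in the mutant add-back. None of them was at 0. On the counts, *Lifr* was high and *Socs3* and *Pim1* were low in the libraries where this sum was high. After the GC and length correction given above, the *Lifr* difference between mutant and wild type was within counting error. The 6 primitive endoderm markers summed to 16.3, 22.8, 12.5 and 23.6 CPM and the 6 trophoblast markers to 65.5, 45.0, 63.2 and 50.2 CPM in the same order of libraries. The trophoblast sum followed *Krt8*, at 38.6, 18.7, 36.4 and 17.2 CPM, while *Eomes*, the other abundant marker of that list, took another order, at 21.4, 23.5, 20.4 and 29.9 CPM. The part of these markers' cells in the member differences was not tested, and in bulk libraries fewer cells of a type and less RNA per cell cannot be told apart.

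The wider pathway was looked at through 52 further genes listed by role, of which 50 were among the tested genes. In the knockdown 4 were higher by 1.5-fold or more and 9 lower, beside 13.9% of all tested genes higher and 12.8% lower. With wild-type YTHDF2 against the knockdown the counts were 9 higher and 3 lower, beside 12.2% and 11.1% of all genes. For the mutant against the knockdown they were 1 higher and 2 lower, beside 6.26% and 9.27%, and for the mutant against the wild type 2 higher and 10 lower, beside 11.7% and 15.5%. The median of the list lay between -0.10 and 0.07 in these comparisons.

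The 29 well-expressed genes of the list stood further from their background, except for the mutant against the knockdown. In the knockdown 0 of the 29 were 1.5-fold higher and 5 were lower, beside 3.04% and 2.31% of all well-expressed genes. The 5, of which *Stat6* was named only after its values were seen, were *Fos*, *Sgk1*, *Stat6*, *Ptpn6* and *Bcl3*. With the wild type against the knockdown 6 were higher and 0 lower, beside 1.52% and 1.6%. With the mutant against the knockdown 0 were apart in either direction, beside 0.0475% higher and 1.09% lower, and for the mutant against the wild type 0 were higher and 6 lower, beside 2.69% and 4.12%. After the GC and length correction the counts were 5 lower in the knockdown, 3 higher with the wild type and 5 lower for the mutant against the wild type, beside 2.33%, 1.43% and 2.17%. The list was chosen with earlier results known and no test was run on it.

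Among the targets of LIF signalling with roles in pluripotency, *Tfcp2l1*, *Klf4* and *Klf5* differed little. *Tfcp2l1*, which encodes a transcription factor that mediates much of the effect of STAT3 on self-renewal, had 772 CPM in the control, 641 in the knockdown, 682 in the wild-type add-back and 712 in the mutant add-back, with a knockdown log2 ratio of -0.27 (-0.30 to -0.23). *Klf4* had 189, 238, 208 and 239 CPM in this order, a knockdown ratio of 0.33 (0.26 to 0.40). *Klf5* was at -0.06 (-0.15 to 0.02). These ESC factors therefore did not move in 1 direction in the knockdown library.

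*Myc* and *Gbx2*, transcription factor genes that STAT3 induces in ESCs, differed far more. *Myc* had 9.07 CPM in the control, 24.0 in the knockdown, 13.8 in the wild-type add-back and 23.8 in the mutant add-back. *Gbx2* had 13.6, 35.5, 19.9 and 31.4 CPM in the same order. Both were thus high where *Socs3* and *Pim1* were low. Their knockdown log2 ratios were 1.41 (1.13 to 1.69) and 1.39 (1.16 to 1.62), and those of mutant against wild type 0.79 (0.55 to 1.03) and 0.65 (0.45 to 0.86).

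The immediate early genes *Fos* and *Junb*, whose products form the AP-1 factor, went with *Socs3*. *Fos* had 115 CPM in the control, 36.9 in the knockdown, 77.9 in the wild-type add-back and 25.8 in the mutant add-back, a knockdown log2 ratio of -1.64 (-1.77 to -1.51) and a ratio of -1.59 (-1.76 to -1.43) for mutant against wild type. *Fos* lies on chromosome 12, where the median log2 ratio of 418 genes was -0.28 in the knockdown, 0.20 for wild type against knockdown and -0.19 for mutant against wild type. It was the only one of the 52 genes there, no member lies there, and the part of this shift in its values was not tested. *Junb* had 42.4, 34.5, 52.8 and 25.2 CPM in this order, with -0.30 (-0.46 to -0.14) and -1.07 (-1.24 to -0.89) for these comparisons, and the latter was -0.61 (-0.79 to -0.44) after the GC correction. Of the target genes named here, *Socs3*, *Pim1*, *Fos*, *Junb*, *Tfcp2l1*, *Bcl3* and *Sgk1* were lower in the knockdown library. *Myc*, *Gbx2*, *Klf4* and *Cebpd* were higher, and *Pim3* and *Klf5* differed within counting error.

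**Figure D5:**
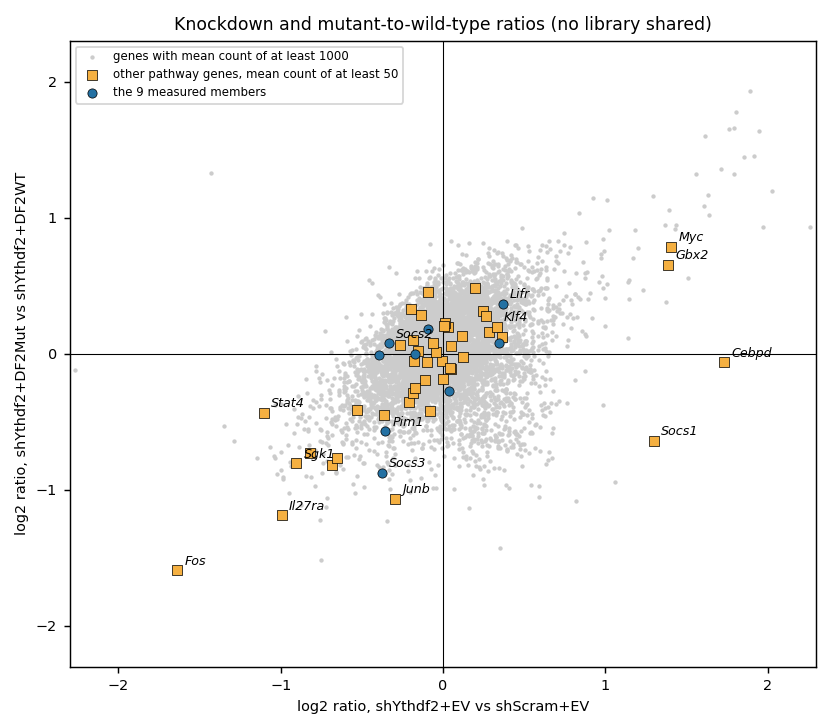
Log2 ratio of the knockdown against the control (x axis) and of the mutant against the wild-type add-back (y axis), which share no library. Blue circles are the 9 measured members, orange squares the other pathway genes that averaged 50 reads or more, and grey points the well-expressed genes, of which 1 lies outside the axes. *Fos*, *Socs3* and *Pim1* lie low on both axes (-1.64 and -1.59, -0.38 and -0.87, -0.36 and -0.57), *Myc* and *Gbx2* lie high on both, and most members lie near the centre.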

How the data were processed

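Read counts per gene were deposited by the authors as 1 table, with the summed exon length of each gene. Per the file headers, counting was done in featureCounts 2.0.3 at exons of the mm39 RefSeq annotation, without strand and without counting read pairs, so that both mates usually count. Reads with several alignments or genes were left out. The submitters' processing notes name fastp 0.19.4, HISAT2 2.2.1, DESeq2 1.40.2 and the mm10 build, which differs from the headers. Coordinates of genes are those of the table, and sequences, GC content and transcript lengths come from mm10.

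Library sizes were scaled with TMM (edgeR 4.0.16, R 4.3.3), and log2 ratios were taken with a prior count of 0.5. Intervals are 95% Clopper-Pearson intervals on reads divided by 2, since mates are not independent. Amplified reads are not independent molecules either. A difference was counted from 2-fold, as in the study, and also from 1.5-fold, among genes averaging 10 reads or more. The correction for GC content and length used splines with 5 degrees of freedom fitted over 16726 genes. No test was run, as each group is 1 library. Scripts were tested on simulated data.

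The members and lists were chosen with earlier results of these data known. All 10 members, *Ythdf2* and 6 targets (*Klf4*, *Klf5*, *Tfcp2l1*, *Gbx2*, *Myc*, *Junb*) were named, with at most 5 others per comparison that averaged 50 reads or more and were 1.5-fold apart. Alternatives were other scalings, prior counts, count minimums, thresholds and FPKM, and, added after seeing the data, the GC and length correction of the list, the background among well-expressed genes, and transcript length.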

Additional observations from a re-analysis of the deposited data

How the results depend on the processing

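Of 225 values of single members recomputed under other settings, 206 stayed within their counting interval, 14 moved outside it, and 5 whose interval had excluded 0 turned direction, all 5 under the correction for GC content and length. These were *Pim3* in the wild-type add-back against the knockdown (-0.093), the mutant against the knockdown (0.017), the mutant against the wild type (0.094) and the wild type against the control (-0.080), and *Pim1* in the wild type against the control (-0.029). Another 15 values changed sign from an interval that had included 0, 5 under this correction and 10 under other scalings. No member was 2-fold apart under another scaling or prior count, but with a minimum of 1 read on average, *Osmr* made 1 member in the knockdown, in the wild type against the knockdown and in the wild type against the control. From 1.5-fold, 1 member (*Socs3*) was counted in the wild type against the knockdown and 1 in the mutant against the wild type. Of 25 values of *Ythdf2*, 2 moved outside their interval. *Ythdf2* for mutant against wild type, -0.12, became -0.038 with upper-quartile scaling and -0.30 with the GC correction. Of the other pathway genes at least 1.5-fold apart in the mutant against the knockdown, 1 of 3 was left at an average of 50 reads or more. No paired analysis was possible because each group has 1 library, and no replicate could be left out. At this depth counting error is small for 8 members and wide for *Lif* and *Osmr*, and the spread between cultures is unknown.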

Other observations

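Other pathway genes showed differences of their own that the comparisons above did not describe. *Cebpd*, a STAT3-induced transcription factor gene, had 32 reads in the control, 122 in the knockdown, 97 in the wild-type and 91 in the mutant add-back, and *Socs1*, an inhibitor of Janus kinases, had 42, 118, 110 and 69 in this order. Both were lowest in the control and were not brought back to it by wild-type YTHDF2, at log2 ratios of 1.53 (0.70 to 2.46) and 1.32 (0.59 to 2.13) against the control. *Bcl3*, for a coactivator of NF-kappaB, had 1272, 920, 1453 and 839 reads, and *Sgk1*, a kinase gene induced by serum and glucocorticoids, had 3453, 2094, 3231 and 1813. These stood low in the knockdown and mutant libraries, as *Socs3* and *Pim1* did. *Ptpn6*, for the phosphatase SHP-1, had 1212, 858, 1350 and 750 reads, and *Il27ra*, a receptor gene of the same family as *Il6st*, had 132, 75, 147 and 63, in the same order of libraries from highest to lowest. *Stat4* had 565, 298, 386 and 280 reads and stayed below the control with wild-type YTHDF2, at -0.60 (-0.88 to -0.34).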
